A study of Mus musculus with 2 samples.

Results

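The 37 genes described here encode proteins of the vascular basement membrane and the surrounding matrix: collagens, laminins, nidogens, proteoglycans, fibulins, elastic fibre proteins and matricellular proteins. They were chosen by name, from the gene symbols of the deposited tables, and all 37 were found among the 32285 genes measured. The basement membrane is a thin sheet beneath endothelial cells in which a laminin network and a type IV collagen network are joined by nidogens and the heparan sulphate proteoglycans perlecan and agrin. In lymph nodes, blood capillaries and high endothelial venules rest on a continuous sheet of this kind, while lymphatic endothelium is known for a thin or discontinuous one and for ties to elastic fibres. Fibroblastic and mural cells supply much of the remaining matrix.

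Endothelial cells came from mice that were either wild type (WT) or Xbp1-KO, sorted from their peripheral and their mesenteric lymph nodes, and tamoxifen was given to all animals. The product of Xbp1 switches on genes of protein folding and secretion when the endoplasmic reticulum is under load. Both genotypes and both tissues were marked with hashtags and loaded together in each of 2 droplet libraries, giving 4 pools a library and n = 2 pools for every combination of genotype and tissue. The labels give no Cre line, animal number, sex or age and do not say which pools share animals, so p-values measure the spread between these pools, which for tissues of 1 library may come from the same animals. Values are unique molecular identifiers (UMIs, tags of single captured RNA molecules) given as CPM, that is per 1000000 UMIs of all cells of a kind in a pool, so fewer expressing cells and less RNA per cell cannot be told apart in them. Levels are compared within a gene, between cells, and never between genes.

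Library 1 held 33024170 UMIs in 7709 barcodes and library 2 held 14744778 in 2903, and 6660 and 2626 cells were kept. Only 3 barcodes occurred in both libraries. Cells were clustered without the 37 genes and without Xbp1, and divided into lymphatic cells (Prox1-positive clusters), high endothelial cells and other blood endothelial cells. A Prox1-positive cluster of 64 dividing cells was left out of the lymphatic sums and of the 14 endothelial subsets described. Peripheral high endothelial sums of library 2 held only 9 and 10 cells. Xbp1, the targeted gene, stood at 90.1 to 130.5 CPM in the Xbp1-KO and 169 to 250.2 CPM in the WT sums of other blood cells, without overlap. In lymphatic cells it was at 47.4 to 54.1 against 56.9 to 122 CPM, and in high endothelial cells the ranges of 172 to 329 and 271 to 500.1 CPM overlapped; which part of the gene was deleted is not given in the labels. Within library 1 the WT pools carried Ddx3y and the Xbp1-KO pools Xist, and in library 2 the reverse held, so pools of 1 genotype came from different animals in the 2 libraries, and within 1 library genotype cannot be told apart from what these sex-linked genes mark. Members were also counted in the clusters of other cells: Col4a1 was at 326 CPM in 42 blood cells led by Igkc and 260.2 CPM in 30 cells led by Prtn3, and these clusters carried endothelial markers in a mean of 38.6% and 42% of cells per marker.

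Type IV collagen is the scaffold of the basement membrane, and its main chains are the products of Col4a1 (ENSMUSG00000031502, chr8:11198423-11312826, minus strand, GRCm38) and Col4a2 (ENSMUSG00000031503, chr8:11312805-11449287, plus strand). The pair lies head to head, and the start sites of the RefSeq table are at 11312826 and 11312805. The promoter windows of both genes, 250 bases before to 50 after each start, are shown because Col4a2 was the gene whose levels across subsets were most like those of Col4a1. They are from RefSeq on GRCm38.p6, each in its gene's own direction, and capitals mark the 78 bases (chr8:11312777-11312854) that the windows have in common.
Col4a1, chr8:11312777-11313076, minus strand: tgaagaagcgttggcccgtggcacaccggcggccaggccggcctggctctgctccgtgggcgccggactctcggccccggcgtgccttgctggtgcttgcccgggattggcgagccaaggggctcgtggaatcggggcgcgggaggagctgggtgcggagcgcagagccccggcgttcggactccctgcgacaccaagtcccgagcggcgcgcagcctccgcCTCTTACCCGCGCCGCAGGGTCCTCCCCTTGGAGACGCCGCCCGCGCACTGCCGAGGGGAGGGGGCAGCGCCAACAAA
Col4a2, chr8:11312555-11312854, plus strand: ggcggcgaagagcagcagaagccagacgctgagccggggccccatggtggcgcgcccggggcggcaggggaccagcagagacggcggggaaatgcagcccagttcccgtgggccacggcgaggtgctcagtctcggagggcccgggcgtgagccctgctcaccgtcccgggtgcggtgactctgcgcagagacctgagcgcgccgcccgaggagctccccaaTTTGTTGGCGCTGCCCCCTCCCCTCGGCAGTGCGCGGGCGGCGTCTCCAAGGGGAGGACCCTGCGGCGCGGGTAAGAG
The GC content of these windows was 74% and 73.7%, above that of 95.2% and 94.9% of all 32851 promoter windows. The GC box GGGCGG, read on both strands, occurred 1 time in the Col4a1 window and 3 times in the Col4a2 window, and 35.66% of all windows hold it. CCAAT was found 1 time in each, against 37.41% of all windows, and TATAAA in neither, against 13.62%. These are matches of letters, not measured binding sites.

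Across 20 subsets of cells, Col4a2 was the gene most correlated with Col4a1 among the 12442 genes compared (Pearson's r = 0.989 on log2(CPM + 1)). Hlx, Igfbp7, Rnf144a and Spry1 came next (r = 0.877, 0.870, 0.867 and 0.859), and the next of the 37 genes was Sparc in rank 7 (r = 0.840). The subsets come from the same libraries and differ in depth, and the correlation is given as a description. Col4a1 was highest in tip-like capillary cells, led by Apln, at 2975 CPM (2739.7 to 3219.6 over 3 pools with at least 20 such cells). Scgb3a1 capillary cells followed at 2247 CPM (1973 to 2549.7 over 8 pools), then the Slc14a1-led, Aqp7 capillary and Srarp-led subsets at 1944, 1611 and 1469 CPM. Arterial cells held 757 CPM, venous cells 585 CPM and high endothelial cells 326 CPM. The ranges over pools of the tip-like and Scgb3a1 capillary subsets did not overlap, whereas those of the 3 subsets that follow did. All 3 tip-like pools were of library 1, as library 2 pools held only 5 to 17 such cells. Tip-like ranges, for this gene and those below, thus have no check in library 2. In lymphatic endothelium, Ptx3 and ceiling cells had 599 and 483 CPM. The Igfbp5-led, floor and Marco subsets were lower, at 182, 112 and 96.5 CPM.

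**Figure D1:**
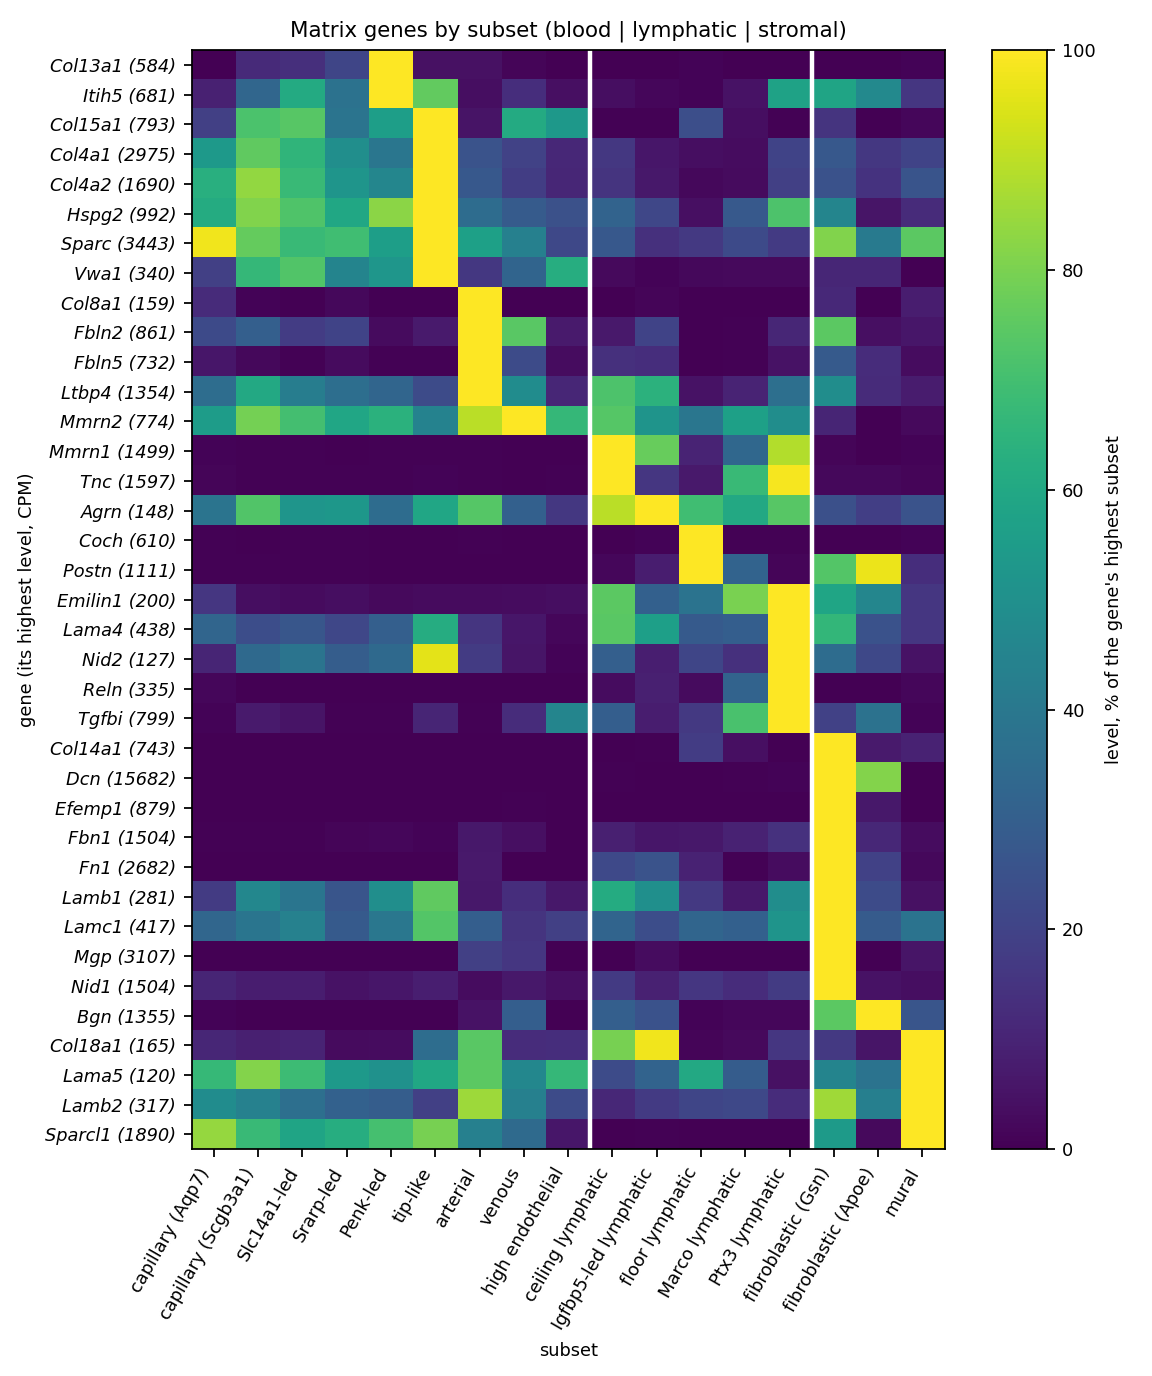
Level of each of the 37 genes (rows, with the gene's highest subset level in CPM in brackets) in 9 blood, 5 lymphatic and 3 stromal subsets (columns), as a percent of that highest level, from counts pooled over both libraries. Type IV collagen chains, perlecan (Hspg2) and Sparc peak in tip-like capillary cells, Fbln2 and Fbln5 in arterial cells, Coch in floor cells, and Dcn and Fn1 in fibroblastic cells.

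Laminins are heterotrimers, and Lama4 and Lama5 encode the alpha chains of vascular laminins. Lama4 was highest in Ptx3 lymphatic cells (438 CPM), followed by ceiling cells (326 CPM) and tip-like cells (271 CPM), and lowest of the endothelial subsets in high endothelial cells (8.40 CPM). Lama5 ran the other way in those subsets, with 80.2 CPM in high endothelial and 5.36 CPM in Ptx3 cells, and was highest among endothelial subsets in Scgb3a1 capillaries (97.9 CPM). Of the beta chains, Lamb1 peaked in tip-like cells (212 CPM), with 17.9 CPM in arterial cells, while Lamb2 peaked in arterial cells (270.0 CPM), with 60.4 CPM in tip-like cells. The gamma chain gene Lamc1 spanned 62.9 CPM in venous to 305 CPM in tip-like cells. Among the linkers, Nid1 was at 259 and 255 CPM in Ptx3 and ceiling cells and at 52.2 CPM in arterial cells. Nid2 reached 127 CPM in Ptx3 and 122 CPM in tip-like cells but 1.27 CPM in high endothelial cells. Hspg2, which encodes perlecan, was highest in tip-like cells (992 CPM) and lowest in floor cells (41.8 CPM). Agrn, which encodes agrin, was highest in the Igfbp5-led lymphatic subset (148 CPM) and lowest in high endothelial cells (23.7 CPM).

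Several of the other collagens were concentrated in few subsets. Col13a1, a transmembrane collagen, was at 584 CPM in the unnamed blood subset led by Penk and Esm1 (242 to 656 over 5 pools) and at most 122 CPM in any other endothelial subset. Col8a1, a short-chain network collagen, was at 159 CPM in arterial cells and at most 19.5 CPM in the others. Col15a1 and Col18a1 encode the related collagens of the multiplexin group, whose C-terminal fragments include endostatin. Col15a1 peaked in tip-like cells (793 CPM) and was at 424 CPM in high endothelial and 42.6 CPM in arterial cells. Col18a1 was at 161 CPM in the Igfbp5-led and 131 CPM in ceiling lymphatic cells, 123 CPM in arterial cells and 2.15 CPM in floor cells. Whether the highest endothelial subset was a blood or a lymphatic one depended on the setting for 3 genes. With coarser clusters Col18a1 was highest in a blood subset, and over pools of at least 50 cells Lamb1 and Lamc1 were highest in lymphatic subsets. No pool held 50 tip-like cells, so genes highest in those cells have another highest subset in that setting. Within lymphatic endothelium Col15a1 had the opposite order, with 189.7 CPM in floor and 5.70 CPM in ceiling cells. Col14a1, a fibril-associated collagen, was at 133 CPM in floor cells, 29.5 CPM in Marco cells and at most 5.07 CPM in the other endothelial subsets.

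Several genes of elastic fibres were highest in arterial cells. Fbln5 and Fbln2, which encode fibulins of elastic fibres and vessel walls, stood at 732 and 861 CPM there. In venous cells they were at 166 and 639.6 CPM, and in floor cells at 2.00 and 2.43 CPM. Mgp, the calcification inhibitor matrix Gla protein, was at 586 CPM in arterial and 493 CPM in venous cells, 98.3 CPM in the Igfbp5-led lymphatic subset, and at most 11.4 CPM in the remaining endothelial subsets. Ltbp4, a TGF-beta binding protein needed for elastic fibres, reached 1354 CPM in arterial, 975 CPM in ceiling and 68.6 CPM in floor cells. Fbn1, which encodes fibrillin-1 of microfibrils, was highest in Ptx3, Marco and ceiling lymphatic cells at 217, 142 and 132 CPM, followed by arterial cells at 98.9 CPM. Emilin1, an elastin-associated glycoprotein, ranged from 61.4 to 199.8 CPM in the 5 lymphatic subsets and was at most 31.6 CPM in blood subsets. Efemp1, another fibulin, was at 3.50 CPM or less in every endothelial subset.

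The matricellular genes divided the lymphatic subsets. Tnc, which encodes tenascin-C, was at 1597, 1578 and 1084 CPM in ceiling, Ptx3 and Marco cells and at 108 CPM in floor cells. Postn (periostin) and Coch (cochlin) were highest in floor cells, at 1111 and 609.7 CPM. Marco cells had 353 and 4.39 CPM and ceiling cells 21.5 and 1.42 CPM. The range of Coch over 7 floor pools, 399 to 778 CPM, was far from the 0 to 2.10 CPM of ceiling pools. Fn1, encoding fibronectin, was at 689 CPM in the Igfbp5-led, 596 CPM in ceiling and 16.1 CPM in Marco cells. Reln (reelin) was at 335 CPM in Ptx3 and 106 CPM in Marco cells. Tgfbi, which encodes a TGF-beta-induced matrix adaptor, was at 799 CPM in Ptx3 cells and, among blood subsets, at 365 CPM in high endothelial cells, with 101 CPM or less in the rest; the blood cell cluster held 169.9 CPM. Mmrn1, encoding multimerin-1, ranged from 151 CPM in floor to 1499 CPM in ceiling cells, while its relative Mmrn2 was at 303 to 774 CPM in all 14 endothelial subsets.

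Sparc, a collagen-binding protein, was above 1505 CPM in every capillary, tip-like and arterial subset and between 479.8 and 949 CPM in lymphatic subsets. Its relative Sparcl1 was at 652 to 1591 CPM in blood subsets other than high endothelial cells, which had 117 CPM. Lymphatic subsets had at most 7.84 CPM of Sparcl1, below the 125 to 147 CPM of the myeloid and blood cell clusters. Itih5, a stabiliser of hyaluronan, was high in Penk-led (681 CPM), tip-like (517 CPM) and Ptx3 lymphatic cells (392 CPM). Vwa1, a perlecan-binding protein, was at 340.2 CPM in tip-like cells and at most 8.37 CPM in lymphatic subsets. The small leucine-rich proteoglycan genes Bgn and Dcn were low in capillaries. Bgn (biglycan) was at 410.1 CPM in ceiling, 405 CPM in venous and 341 CPM in Igfbp5-led cells. Dcn (decorin) was at 19.8 to 150.0 CPM in the lymphatic subsets, 31.5 CPM in venous cells and at most 3.72 CPM in other blood subsets.

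Stromal cells numbered 121, and no stromal subset had 20 cells in any pool, so their levels have no replicate check. In 21 fibroblastic cells led by Gsn and C3, Dcn was at 15682 CPM, Mgp at 3107 CPM, Fn1 at 2682 CPM, Fbn1 and Nid1 each at 1504 CPM, and Efemp1 at 879 CPM. In 22 fibroblastic cells led by Apoe, with Ccl19 and Cxcl13 among their leading genes, Dcn was at 12797, Bgn at 1355 and Postn at 1080.2 CPM, while Mgp was at 0 and Efemp1 at 54.9 CPM. The 49 mural cells had the highest Sparcl1 (1889.9 CPM) and Lamb2 (317 CPM) of these subsets, and 19.0 CPM of Dcn. Another 29 cells of the stromal cluster carried endothelial genes (a mean of 71% of cells per endothelial marker) and were not named. The defining fibroblastic markers were nearly absent from endothelial sums: Col1a1, Col1a2, Col3a1, Dpt and Lum reached at most 2.30 CPM in any lymphatic sum, Lum being at 0 in all 8, and Ccl19 made up 15.1 to 33.4 CPM of the summed 17.2 to 36.8 CPM of the 7-gene list. In other blood sums that list came to 0 to 6.06 CPM. The 8-gene mural list summed to 18.1 to 117 CPM in other blood and 79.6 to 240.2 CPM in lymphatic sums, most of it Rgs5 in lymphatic cells (72.1 to 233 CPM), with Tagln at 4.44 to 98.2 CPM in other blood sums; Cspg4 was at 0 in all 8 other blood sums.

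Lymphatic cells were then compared with all blood endothelial cells over the 4 WT pools of each. Of the 37 genes 36 passed the low-count filter (all but Efemp1), and 34 of them differed at an adjusted p under 0.05, 16 higher and 18 lower in lymphatic cells. Across all 11577 genes tested 39.7% differed, 22.2% higher and 17.5% lower. The median log2 fold change was -0.34 for the 36 genes and 0.04 for all genes. Pool values below are in the order library 1 peripheral, library 1 mesenteric, library 2 peripheral and library 2 mesenteric. Col4a1 stood at 263, 279, 289 and 189.7 CPM in lymphatic and at 1563, 1513, 1545 and 960.1 CPM in blood cells. All 4 lymphatic values were below all 4 blood values, a log2 fold change of -2.63 ± 0.16 (SE, adjusted p = 6.2e-10). Col4a2 fell by the same measure by 2.78, Hspg2 by 1.62, Lamb2 by 1.21, Lama5 by 1.15 and Lamc1 by 0.39. Other core genes were higher: Lama4 was at 246, 198, 279 and 138 CPM in lymphatic and 118, 83.2, 125 and 54.8 CPM in blood cells, 1.01 ± 0.15 (SE, adjusted p = 2.23e-05), again without overlap. Nid1 was higher by 0.93 and Agrn by 0.43. Lamb1 and Nid2 did not pass the test, with log2 fold changes of -0.09 ± 0.16 (SE, adjusted p = 0.684) and -0.30 ± 0.21 (SE, adjusted p = 0.286).

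**Figure D2:**
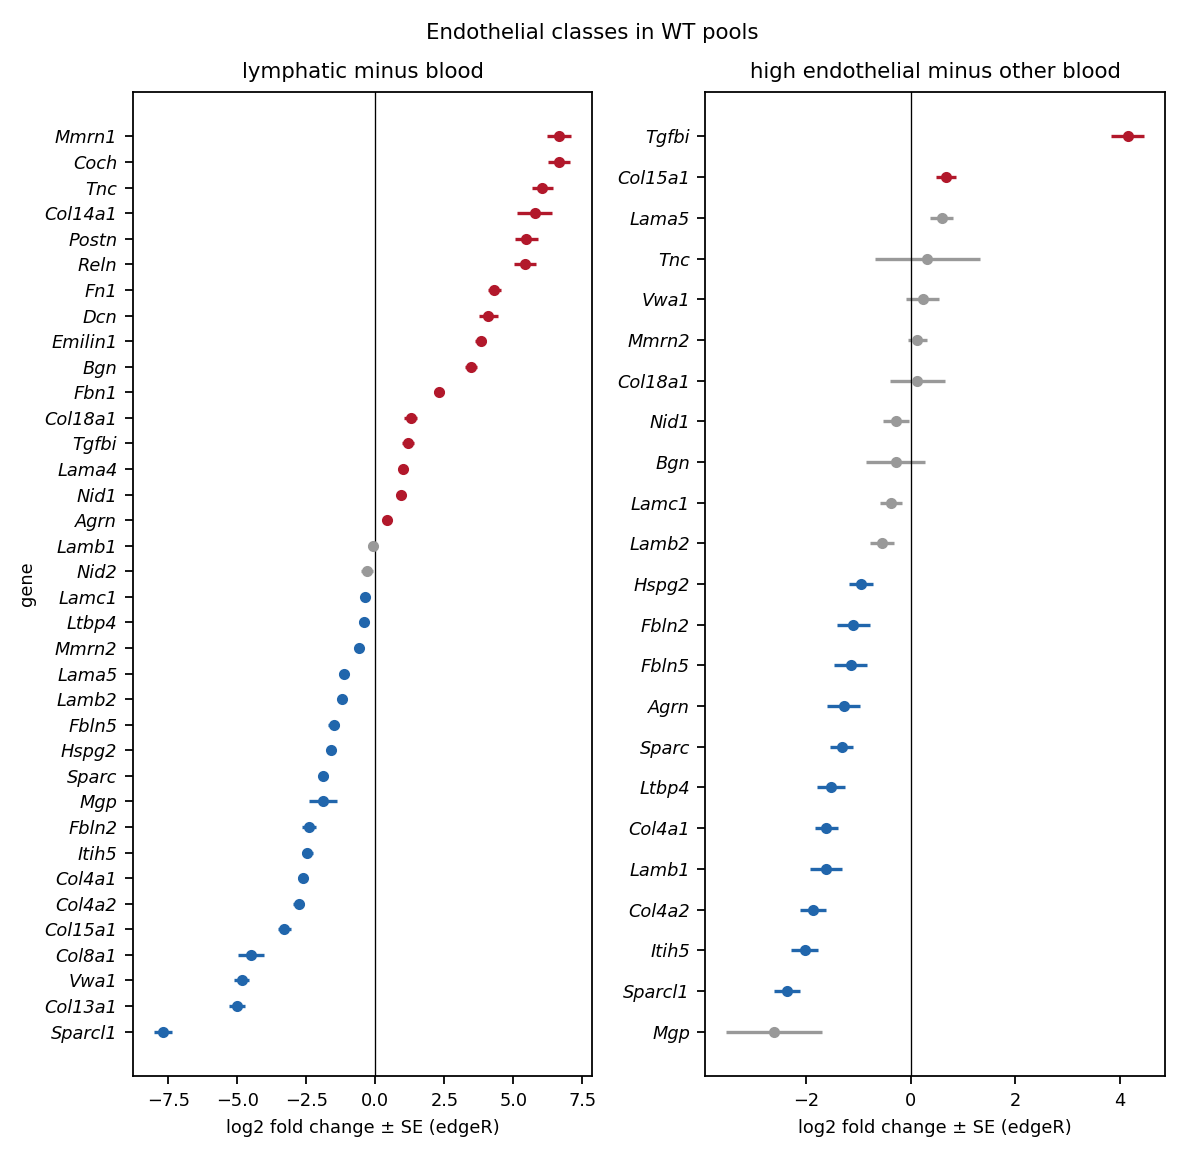
Log2 fold changes with standard errors (edgeR) of the 37 genes in WT pools, for lymphatic minus blood endothelial cells (left) and high endothelial minus other blood cells (right), n = 4 sums in each class. Red genes were higher and blue genes lower at an adjusted p under 0.05, grey genes did not pass, and genes not tested, with 3 or fewer UMIs, or with a tissue at 0 in a class are not drawn; type IV collagen chains are blue in both panels and Tgfbi is red in both.

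The members with the highest fitted values in lymphatic cells were Mmrn1 (log2 fold change 6.66 ± 0.44 SE, adjusted p = 1.25e-09), Coch (6.64), Tnc (6.04), Col14a1 (5.76), Postn (5.47), Reln (5.42), Fn1 (4.31), Dcn (4.09), Emilin1 (3.81) and Bgn (3.46). The fitted values of Col14a1, Reln and Coch rest on 6, 8 and 19 UMIs over the 4 blood sums, with Reln at 0 in 2 of them, and are imprecise in size. Mmrn1 was at 892, 531, 1061 and 887 CPM in the lymphatic pools and at 1.28 to 10.9 CPM in the blood pools. Fbn1, Col18a1 and Tgfbi were also higher, by 2.30, 1.28 and 1.19. Of the called genes, only Tgfbi, Lamc1, Fbln5, Ltbp4 and Mgp had WT pool ranges that overlapped between the classes. The blood sums include high endothelial cells, where Tgfbi was high among blood subsets, and their part in its difference was not tested. For Tgfbi the difference was 0.96 (adjusted p = 0.289) without library 1. Genes lower in lymphatic cells were led by Sparcl1 (-7.68 ± 0.34 SE, adjusted p = 1.3e-11), Col13a1 (-5.02), Vwa1 (-4.84), Col8a1 (-4.50) and Col15a1 (-3.29); Col8a1 had 5 UMIs over the 4 lymphatic sums. Sparcl1 was at 6.17, 7.25, 4.12 and 0 CPM in lymphatic and 1292, 999.7, 1186 and 697 CPM in blood pools, and these did not overlap. Itih5, Fbln2, Sparc, Fbln5, Mmrn2 and Ltbp4 were lower by 2.46, 2.40, 1.88, 1.50, 0.60 and 0.42. Mgp had a fitted value of -1.90, but its 4 lymphatic values of 1.70, 32.8, 3.43 and 168 CPM were below the blood values of 106, 24.3, 35.0 and 23.0 CPM in both peripheral pools and above them in both mesenteric pools. Without library 1 it was 0.79 (adjusted p = 0.618) and without library 2 -2.53 (adjusted p = 0.0602). Agrn and Fbln5 lost the call without either library, and Lamc1 and Ltbp4 without library 1 (adjusted p between 0.0771 and 0.361).

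Genes that act on the matrix, from lists fixed alongside the 37 genes, were measured in the same fit, in which 39.7% of all genes differed (22.2% higher and 17.5% lower). Unlike the 37 genes they were not kept out of the clustering, and Itga9, Cd44 and Vwf were among the markers used to name subsets. Their calls between classes, here and for high endothelial cells, are thus not independent of the clusters. Of the cross-linking enzymes 5 of 7 were tested: Loxl3 (5.10), Loxl2 (3.37), Lox (3.30) and Tgm2 (1.84) were higher in lymphatic cells and Pxdn, the peroxidase that links type IV collagen, was lower (-1.30). Of 20 matrix receptors tested 8 were higher, led by Sdc2 (5.42), Itga9 (4.12) and Ddr1 (3.07), and 5 lower, led by Itgb5 (-4.16), Bcam (-2.38) and the laminin receptor gene Itga6 (-2.01). Among 20 proteases and inhibitors 10 were higher, with Mmp9 (6.39) and Adamts5 (3.19) first, and 4 lower, with Mmp15 first (-5.07). The 18 genes of collagen folding and modification gave 2 higher (P3h3 at 2.94 and Fkbp10 at 0.65) and 3 lower (Pcolce at -2.81, P3h2 at -1.68 and Ppib at -0.32), with a median of 0.11; with the pool as a block 4 were higher and 4 lower, against 45.1% of all genes called. Of 27 other matrix genes 15 were higher and 7 lower; of the laminin chains among them Lamb3 (5.85) was higher and Lama3 (-8.46) was lower.

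High endothelial cells, the site of lymphocyte entry, were set against other blood endothelial cells in the same WT pools. Of 30 members tested 19 differed, 2 higher and 17 lower, against 15% of all 9161 genes tested (5.7% higher and 9.32% lower). Of the 17 called lower 12 had more than 3 UMIs in the high endothelial sums; the others passed the low-count filter only through the other blood cells. The median log2 fold change was -1.31 for the 30 genes, also with Nid2 at its bound, and -0.16 for all genes. Col4a1 was at 713, 421, 388 and 257 CPM in high endothelial and 1594, 1813, 1663 and 1426 CPM in other blood cells, -1.62 ± 0.22 (SE, adjusted p = 2.44e-05), without overlap. Col4a2 (-1.87), Hspg2 (-0.95), Agrn (-1.29) and Lamb1 (-1.63) were also lower. Nid2 had 0 UMIs in the 4 WT high endothelial sums against 277 in the other cells. At a floor of 3 counts over the group, the summed counts put it at least 20.6-fold lower. Lama4 had 12 UMIs, all from mesenteric pools, or 7.51 against 112 CPM, a ratio of 14.9 (95% exact interval 8.46 to 28.9, counting error only). Both folds sum over tissues, and the mesenteric share of UMIs was larger in high endothelial than in other blood cells. They are thus not folds at an equal tissue mix. Lama5 (0.59 ± 0.22 SE, adjusted p = 0.0782), Lamb2 (-0.55), Lamc1 (-0.38) and Nid1 (-0.28) did not pass. With the pool as a block 21 members passed, against 19.9% of genes, with Lama5 also higher at 0.59 (adjusted p = 0.0407) and Mgp also lower at -2.58 (adjusted p = 2.75e-06).

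The gene most in excess was Tgfbi, at 307, 491, 577 and 301 CPM in high endothelial and 31.9, 32.4, 32.5 and 15.9 CPM in other blood cells, 4.15 ± 0.31 (SE, adjusted p = 8.77e-09), with all 4 pools of one class above all 4 of the other. Col15a1 was higher at 0.67 ± 0.19 (SE, adjusted p = 0.0168), but not in the Xbp1-KO pools (adjusted p = 0.174) or without sums of fewer than 20 cells (adjusted p = 0.0833). Sparcl1, Itih5, Ltbp4, Sparc, Fbln5 and Fbln2 were lower by 2.38, 2.03, 1.53, 1.33, 1.16 and 1.10. Col13a1, Fn1, Fbn1 and Col8a1 were called lower with only 1 to 3 UMIs in the high endothelial sums. Col13a1 had 3 UMIs against 924, a ratio of 68.8 (95% exact interval 23.5 to 334). This ratio sums over tissues, between which Col13a1 differed in other blood cells, and most WT high endothelial UMIs were mesenteric. The interval covers counting error only, not this mix, and the ratio within a tissue may lie outside it. Of the genes that act on the matrix, set against the 15% of all genes called, Timp1 (3.39), Timp2 (3.06) and Ctsl (2.25) were higher and Timp3 (-2.16) was lower. In the folding list 4 of 16 tested were higher, led by Pcolce (2.02), Fkbp10 (1.33) and P4hb (0.95), and 2 lower. Of 16 matrix receptors 5 were lower, led by Itga1 (-1.80) and Sdc3 (-1.69), and none was higher without the block, while Ddr2 and Itgb4 were higher with it, where 19.9% of all genes were called. High endothelial sums were smaller, and with all sums thinned to the smallest 16 members were tested and 10 called, all of them among the 19, against 28.9% of genes.

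Mesenteric and peripheral nodes were compared within each class. In lymphatic cells 11 of 35 members tested differed over both genotypes, 3 higher and 8 lower in mesenteric cells, against 5.13% of 10655 genes (3.17% higher and 1.96% lower); with the library as a block 21 members and 13.3% of genes passed. The median log2 fold change was -0.30 for the members and 0.00 for all genes. Values are in the order library 1 WT, library 1 Xbp1-KO, library 2 WT and library 2 Xbp1-KO. Postn was at 563, 706, 369.9 and 471 CPM in peripheral and 90.8, 106, 94.9 and 112 CPM in mesenteric pools, -2.30 ± 0.17 (SE, adjusted p = 2.23e-05). Each mesenteric pool was below each peripheral pool, and the same held within floor cells (1226 to 1616 against 158 to 201 CPM) and Marco cells (304 to 567 against 17.5 to 86.4 CPM). In the Igfbp5-led subset the ranges of 44.0 to 97.6 and 78.3 to 332 CPM overlapped. Fbln5 was at 57.8, 43.7, 66.6 and 65.4 CPM in peripheral and 14.1, 18.4, 19.0 and 14 CPM in mesenteric pools, -1.80 ± 0.20 (SE, adjusted p = 0.000219), without overlap. It was lower without overlap within ceiling cells (96.0 to 129 against 35.7 to 44.5 CPM) and in the Igfbp5-led subset.

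Dcn was at 81.0, 74.3, 74.1 and 74.0 CPM in peripheral and 44.8, 18.4, 26.1 and 25.6 CPM in mesenteric lymphatic pools, -1.24 ± 0.16 (SE, adjusted p = 0.000516). Subsets differed in direction: Marco cells had 96.2 to 183 CPM in peripheral and 3.50 to 58.9 CPM in mesenteric pools and ceiling cells 79.0 to 102 and 7.50 to 33.6 CPM, whereas floor cells had 0 to 12.7 and 42.3 to 63.8 CPM. Whether the tissue effect differs between subsets was not tested. The summed fibroblastic list was at 17.2 to 27 CPM in peripheral and 19.0 to 36.8 CPM in mesenteric lymphatic sums, and its part in the Dcn difference was not tested. Itih5 (-1.15), Tnc (-0.77), Tgfbi (-0.81), Reln (-0.94) and Fbln2 (-0.87) were also lower in mesenteric cells, and Tgfbi was lower without overlap within each of the 4 lymphatic subsets with enough cells. With equal weight for each of 3 subsets the Reln difference was 0.01, and Reln levels in ceiling and Igfbp5-led cells overlapped between tissues. Without library 1, Emilin1, Fbln2, Fn1, Itih5, Reln and Tnc no longer passed (adjusted p of 0.0535 to 0.382); all kept their direction.

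**Figure D3:**
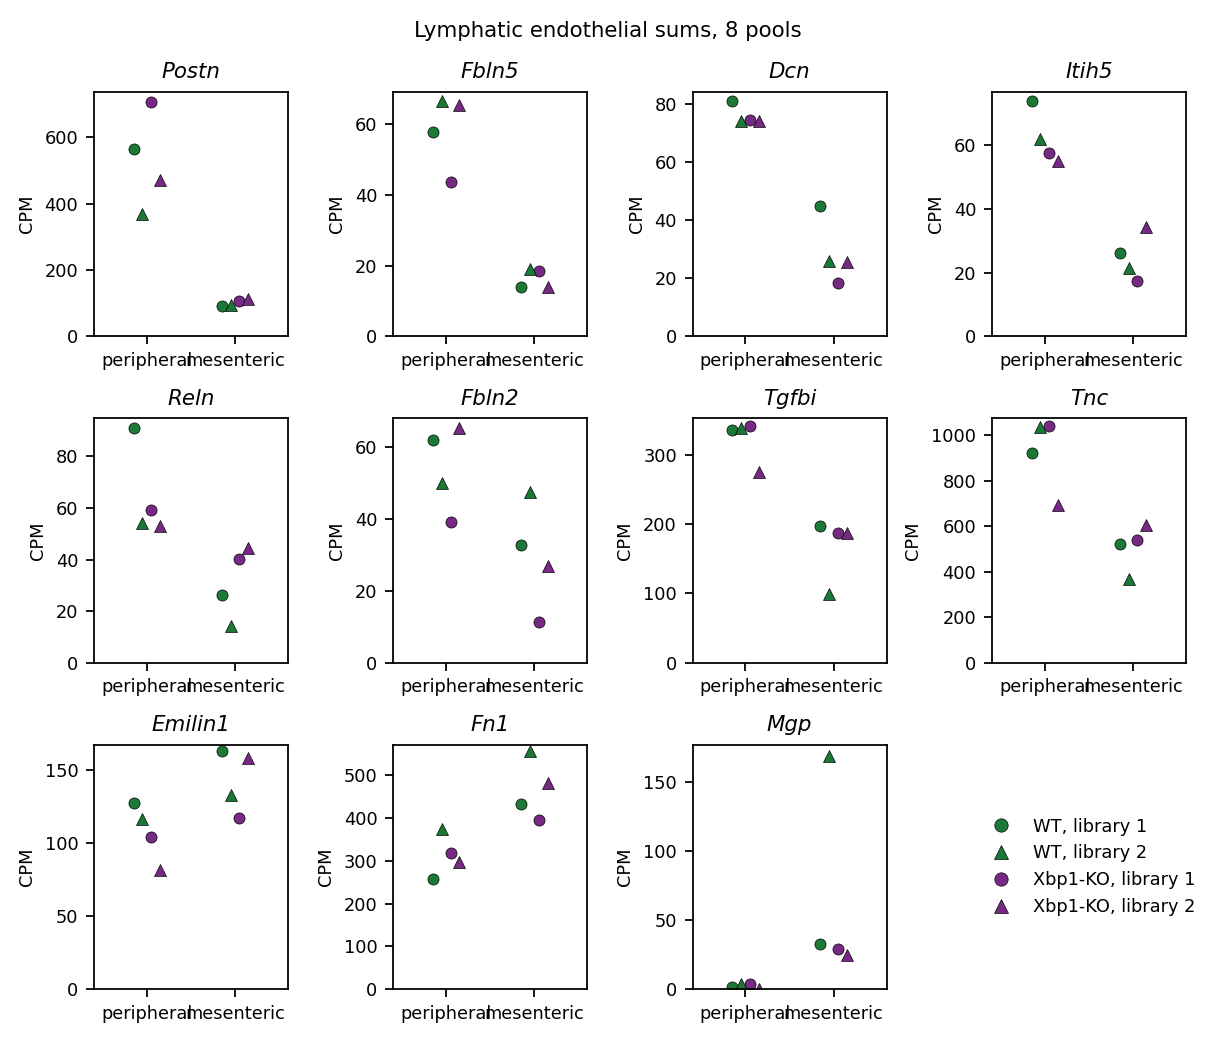
CPM of the 11 genes that differed between tissues in lymphatic cells, 1 point per pool (4 peripheral and 4 mesenteric), with genotype by colour and library by shape; every vertical axis starts at 0. Postn, Fbln5, Dcn and Itih5 show 4 mesenteric points below the 4 peripheral ones, and for Mgp all 4 mesenteric points lie above.

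Mgp, Fn1 and Emilin1 were higher in mesenteric lymphatic cells. Mgp was at 1.70, 3.52, 3.43 and 0.481 CPM in peripheral and 32.8, 28.8, 168 and 24.4 CPM in mesenteric pools, 4.29 ± 0.55 (SE, adjusted p = 0.000503). The mesenteric values lay above the peripheral ones, and nearly all the signal came from the Igfbp5-led subset (0 to 33.7 against 193 to 353 CPM), which made up 39.1% of the lymphatic cells in the highest pool. Fn1 was at 258 to 374 against 396 to 557 CPM (0.67 ± 0.14 SE, adjusted p = 0.0172) and in floor cells at 139 to 188 against 448 to 539 CPM. For Emilin1 the values were 81.2 to 127 and 117 to 163 CPM, which overlapped (0.54 ± 0.13 SE, adjusted p = 0.0316). No core gene passed without the block: Col4a1 was at 259 to 289 CPM in peripheral and 189.7 to 280.4 CPM in mesenteric pools (0.00 ± 0.13 SE, adjusted p = 0.996), while with it Col4a2 was higher at 0.32 (adjusted p = 0.0214) and Lama4, Hspg2, Lamc1 and Agrn were lower, from -0.42 (adjusted p = 0.0142) for Lama4 to -0.29 (adjusted p = 0.0475) for Agrn. Of the lists, 5 of 18 matrix receptors tested were lower, led by Sdc2 (-1.51), Cd44 (-1.11) and Itga3 (-0.77), and Ddr1 (1.82) and Ddr2 (0.86), the collagen receptor kinases, were higher. Adamts1 and Timp4 were the only proteases or inhibitors called (-0.64 and -0.63). Among other matrix genes Vwf (3.72) was higher and Npnt (-2.38), Ccn1 (-1.39) and Ntn4 (-0.84) were lower. No gene of the folding or cross-linking lists passed. With the block, under which the calls over all genes rose from 5.13% to 13.3%, those in the lists rose from 2 to 5 proteases and inhibitors (Plat higher, Timp2 and Timp3 also lower), from 7 to 8 receptors and from 6 to 11 other matrix genes, and Ppib of the folding list was higher. The summed mural list ran from 79.6 to 112 CPM in peripheral and 123 to 240.2 CPM in mesenteric lymphatic sums; its part in these results was not tested.

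In blood endothelial cells other than high endothelium 2 of 33 members tested differed between tissues, both lower in mesenteric pools, against 1.03% of 10059 genes in either direction and 0.517% lower. Itih5 was at 454, 443, 382 and 415 CPM in peripheral and 139, 97.4, 121 and 135 CPM in mesenteric pools, -1.77 ± 0.15 (SE, adjusted p = 0.000226). Col13a1 was at 221, 152, 166 and 212 CPM and 64.4, 54.3, 55.1 and 64.1 CPM, -1.64 ± 0.17 (SE, adjusted p = 0.000697). For both genes all 4 mesenteric values were below all 4 peripheral ones. Within Scgb3a1 capillary cells Itih5 was at 311 to 414 against 76.9 to 132 CPM and within Srarp-led cells at 412 to 537 against 142 to 195 CPM. Col13a1 separated the tissues within Srarp-led cells (172 to 246 against 68.5 to 87.9 CPM) but not within Scgb3a1 capillary cells (53.8 to 117 and 44.9 to 76.9 CPM). The Penk-led subset, where both are highest, had at least 20 cells in all 4 peripheral pools and in 1 mesenteric pool; it made up 11.1 to 21.4% of peripheral and 0.797 to 2.46% of mesenteric blood endothelial cells, and the part of that share in both differences was not tested. With the library as a block 12 members passed, against 4.9% of genes: Lama4 (-0.59, adjusted p = 0.00172), Lamb1, Lamc1, Nid2, Hspg2 and Col15a1 were lower and Fbln5 (0.85, adjusted p = 0.00214), Fbln2, Bgn and Sparc higher in mesenteric cells. The summed mural list ran from 18.1 to 41.6 CPM in peripheral and 20.1 to 117 CPM in mesenteric blood sums, and its part in these values was not tested. Col4a1 gave -0.04 ± 0.14 (SE, adjusted p = 1) without the block. Of the lists Thbs1 (1.78) and Vwf (1.72) were higher and Adamts1 (-1.11) was lower, and no folding, cross-linking or receptor gene passed. With the block Fkbp10 and Itgb5 were also lower, and 7 other matrix genes passed in place of 2, while the share of all genes called rose from 1.03% to 4.9%.

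**Figure D4:**
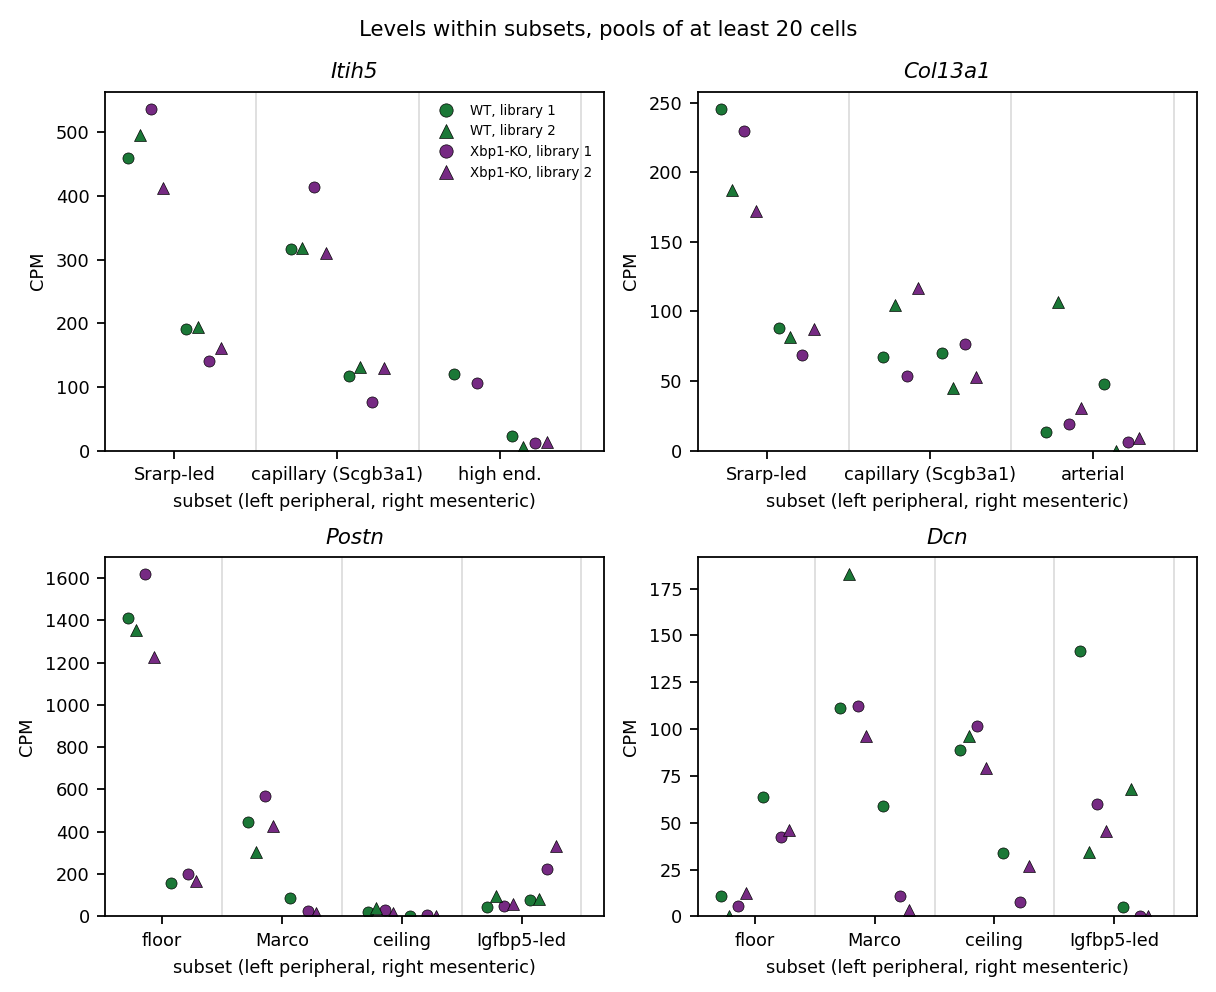
CPM of Itih5, Col13a1, Postn and Dcn within single subsets, 1 point per pool with at least 20 cells of that subset, peripheral pools on the left and mesenteric pools on the right of each panel section; every vertical axis starts at 0. Itih5 is lower in mesenteric pools of all 3 subsets shown, and Dcn is lower in mesenteric Marco and ceiling cells but higher in mesenteric floor cells.

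In high endothelial cells 2 of 21 members tested differed between tissues, both lower in mesenteric pools, against 0.313% of 6068 genes in either direction and 0.132% lower. Itih5 was at 121, 106, 153 and 120.1 CPM in peripheral and 23.9, 11.7, 6.40 and 13.9 CPM in mesenteric pools, -3.15 ± 0.36 (SE, adjusted p = 7.55e-05). Sparcl1 was at 449, 278, 247 and 360.4 CPM and 156, 49.6, 59.2 and 88.1 CPM, -1.97 ± 0.30 (SE, adjusted p = 0.00141). Neither gene overlapped between tissues, although 2 of the peripheral values rest on 9 and 10 cells. With all sums thinned to the smallest Itih5 fell below the count filter, and with pools assigned by the ratio of hashtag counts Sparcl1 no longer passed (-0.99, adjusted p = 0.4995). Itih5 was thus lower in mesenteric nodes in each of the 3 endothelial classes. A test of whether the tissue difference itself differed between lymphatic and other blood cells, added after these results were seen, called 5 of 36 members against 0.909% of 11224 genes. Fbln5 fell in mesenteric lymphatic cells and was at 0.86 in blood cells, a difference of -2.70 ± 0.30 (SE, adjusted p = 0.00018). Col13a1 was at 1.53 in lymphatic cells, where its levels were 1.49 to 8.05 CPM, and fell in blood cells, a difference of 3.14 ± 0.47 (SE, adjusted p = 0.00231). For Mgp the difference was 4.39 ± 0.72 (SE, adjusted p = 0.0052), for Bgn -1.62 ± 0.34 (SE, adjusted p = 0.0259) and for Fbln2 -1.52 ± 0.35 (SE, adjusted p = 0.0482). Among blood endothelial cells the shares of 7 of 9 subsets did not overlap between tissues. Lower in mesenteric pools were the Penk-led subset, where Col13a1 peaked, the Slc14a1-led subset (0.595 to 3.51% against 15.5 to 20%) and tip-like cells (0.797 to 3.22% against 3.53 to 5.47%). Higher were the Srarp-led subset (25.6 to 51% against 13.9 to 20.2%), high endothelial cells (9.15 to 21.5% against 1.87 to 4.61%), arterial cells (9.73 to 15.2% against 7 to 9.38%) and venous cells (2.38 to 4.67% against 0.391 to 1.78%). Among lymphatic cells the ceiling share was 14.8 to 20.6% in mesenteric and 28 to 43.3% in peripheral pools. The part of these shares in the class differences was not tested. Without library 1 the differences of Col13a1 and Fbln2 no longer passed (adjusted p = 0.431 and 0.106).

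Genotypes were compared over both tissues. With both libraries, the low-count filter and no library block, edgeR called no member in any class. With the block Mgp was called in blood cells, against 0.189% of genes, and Bgn in lymphatic cells, against 0.835%. Without the low-count filter Bgn and Mgp were called in blood, against 0.166% of genes. Library 1 alone called 5 members in blood (0.961% of genes), 2 in lymphatic (0.727%) and 0 in high endothelial cells (0.244%), and library 2 alone called 0 (0.0212%), 3 (0.332%) and 1 (1%). In other blood cells 0 of 33 members and 0% of 10059 genes passed edgeR's test, with 3 members and 2.47% of genes at an unadjusted p under 0.05 and 0 calls among members by DESeq2. In lymphatic cells 0 of 35 members and 0% of 10655 genes passed, with 8 members and 6.05% of genes at an unadjusted p under 0.05, and in high endothelial cells 0 of 21 and 0% of 6068, with 0 members and 3.51% of genes; DESeq2 also called 0 members in both. With 0% of genes passing, edgeR's test did not call Xbp1 either, although its ranges in other blood cells did not overlap between genotypes. The lack of a call therefore does not show that a member is unchanged. Medians of the members were 0.01, -0.11 and -0.21, against 0.00, 0.00 and 0.03 for all genes. Col4a1 was at 1594, 1813, 1663 and 1426 CPM in WT and 1822, 1736, 1549.8 and 1441 CPM in Xbp1-KO blood pools, in the order library 1 peripheral, library 1 mesenteric, library 2 peripheral and library 2 mesenteric. These overlapped, with a log2 fold change of 0.04 ± 0.14 (SE, adjusted p = 0.999). In lymphatic cells Col4a1 gave 0.00 ± 0.13 (SE, adjusted p = 1) and in high endothelial cells -0.20 ± 0.27 (SE, adjusted p = 1). All core genes lay between -0.27 and 0.08 in blood and between -0.54 (Lamb2) and 0.43 (Nid2) in lymphatic cells. Without the library block no gene of the 5 lists passed in any class, and with it Vwf passed as higher in blood and Ccn1 as higher in lymphatic cells.

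**Figure D5:**
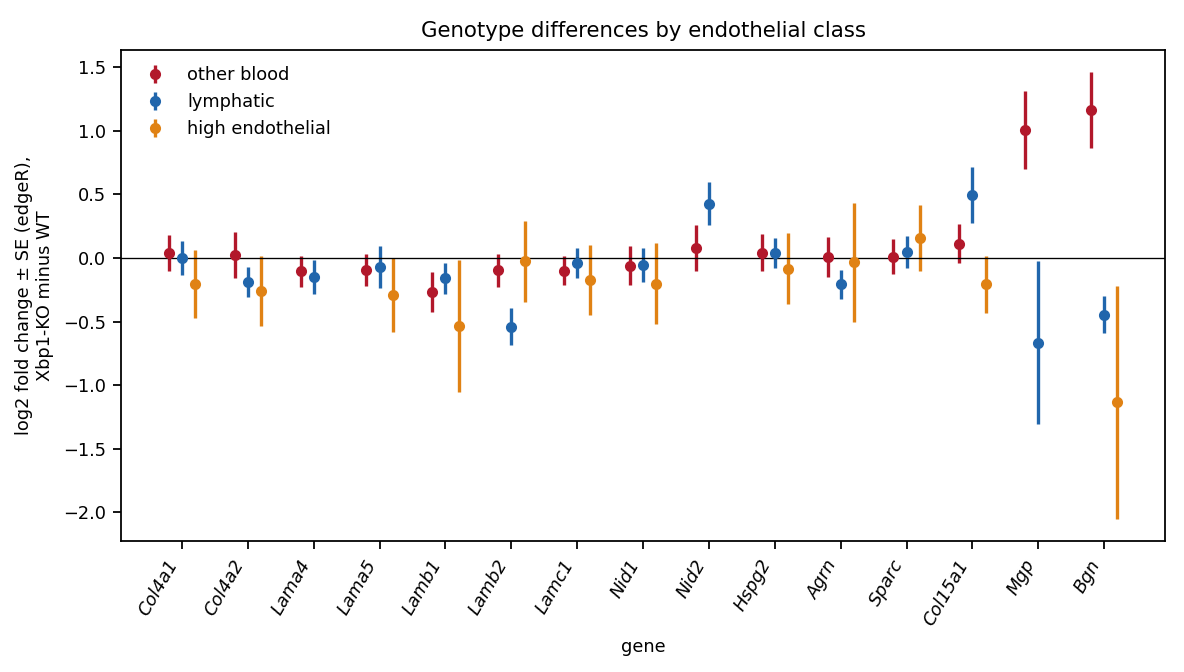
Log2 fold changes with standard errors (edgeR), Xbp1-KO minus WT over both tissues, for the 11 core basement membrane genes and for Sparc, Col15a1, Mgp and Bgn in other blood, lymphatic and high endothelial cells (4 pools per genotype in each class; genes not tested in a class have no point). Core genes lie between -0.27 and 0.08 in blood and between -0.54 (Lamb2) and 0.43 (Nid2) in lymphatic cells, and Mgp and Bgn lie above 1 in blood cells. None passed in this fit, which had the low-count filter and no library block.

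In blood cells the members with the largest genotype differences were Bgn and Mgp. Bgn was at 11.3, 17.6, 6.03 and 31.8 CPM in WT and 30.3, 55.9, 14.3 and 38.8 CPM in Xbp1-KO pools, 1.16 ± 0.30 (SE, adjusted p = 0.999), higher in 4 of 4 pairs but with overlapping ranges. Without library 1 it was 0.57 (adjusted p = 0.83) and without library 2 1.57 (adjusted p = 4.22e-08). In each such fit a genotype is 2 tissue pools that may share animals, and genotype cannot be told apart from the split in Xist and Ddx3y; Bgn lies on the X chromosome. Mgp was at 109, 27.2, 38.6 and 38.2 CPM in WT and 86.9, 175, 46.6 and 115 CPM in Xbp1-KO pools, 1.01 ± 0.31 (SE, adjusted p = 0.999), higher in 3 of 4 pairs, and at 1.10 (adjusted p = 0.026) with the library block it passed, against 0.189% of genes. With that block its genotype difference also depended on tissue in edgeR's test (2.67, adjusted p = 0.0263). Mgp was the only gene of 10059 called in that fit, so the 0.00994% of genes called is Mgp itself. Bgn and Mgp are highest among blood subsets in venous and arterial cells. The share of venous cells among blood cells was higher in Xbp1-KO in 4 of 4 pairs. In the same order it was 0.451, 2.63, 0.391 and 2.38% in WT and 1.78, 4.67, 0.832 and 4.63% in Xbp1-KO pools. These shares rest on few venous cells, 4, 31, 1 and 8 in WT and 17, 28, 4 and 29 in Xbp1-KO pools. The arterial share was higher in Xbp1-KO in library 1 and lower in library 2, at 7, 10.3, 9.38 and 15.2% in WT and 9.11, 11.5, 8.73 and 9.73% in Xbp1-KO pools; the part of these shares was not tested. The third by size was Col8a1, an arterial gene, at 0.54 ± 0.24 (SE, adjusted p = 0.999). The summed mural list was likewise higher in Xbp1-KO in 4 of 4 pairs of blood sums, at 21.8, 64.4, 18.1 and 20.1 CPM in WT and 41.6, 117, 23.3 and 47.7 CPM in Xbp1-KO. Within that list Tagln (4.44 to 98.2 CPM) and Rgs5 (8.48 to 20.6 CPM) ranged highest over the blood sums. Acta2, Myh11, Notch3, Pdgfrb and Des reached at most 5.14 CPM, and Cspg4 was at 0. The part of the list in these values was not tested. In lymphatic cells the sign of Bgn was the other way, at 183, 123, 242 and 185 CPM in WT and 166, 95.5, 161 and 116 CPM in Xbp1-KO pools, -0.45 ± 0.15 (SE, adjusted p = 0.613), lower in 4 of 4 pairs. With the library block it was -0.45 (adjusted p = 0.0341), against 0.835% of genes. The largest lymphatic differences were those of Mgp (-0.66 ± 0.64 SE, adjusted p = 0.914), Lamb2 (-0.54 ± 0.15 SE, adjusted p = 0.444) and Fbln2 (-0.53 ± 0.24 SE, adjusted p = 0.812). In high endothelial cells they were those of Bgn (-1.14 ± 0.91 SE, adjusted p = 1), Fbln5 (-1.05 ± 0.51 SE, adjusted p = 1) and Fbln2 (-0.65 ± 0.36 SE, adjusted p = 1), and none passed. The test of whether the genotype effect differed between lymphatic and other blood cells called 0 of 36 members with edgeR, with 3 members and 2.82% of genes at an unadjusted p under 0.05 and 0% of 11224 genes passing; DESeq2 was not run for it. With the low-count filter and without the library block, edgeR's tests of an interaction of tissue and genotype called 0 members in each class, against 0% of genes. In these fits 1, 3 and 0 members and 2.01%, 2.83% and 3.39% of genes had an unadjusted p under 0.05 in blood, lymphatic and high endothelial cells. DESeq2 also called 0 members. Without that filter edgeR called 1 member in blood cells, against 0.0828% of genes.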

How the data were processed

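The values used were raw UMI counts per gene and cell barcode, as deposited by the authors. The file headers name Cell Ranger 6.0.1, while the submitters' processing notes name version 6.1 and the build mm10. Hashtag counts deposited beside them assigned barcodes to pools (HTODemux in Seurat 5.3.0, quantile 0.99). Cells with at least 500 genes and at most 10% mitochondrial counts were kept, Scrublet doublets were removed (53 and 5), and cells were clustered in scanpy 1.11.5 on 1980 variable genes at resolution 1.0. Names came from fixed markers without the members; that a cluster with endothelial markers in under 50% of cells is non-endothelial, and that the high endothelial name needs own markers among the top 10 genes, were added after the clusters were seen.

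Counts were summed per pool and class and tested in R 4.3.3 with edgeR 4.0.16 (quasi-likelihood, TMM, low-count filter, Benjamini-Hochberg over all genes), with DESeq2 1.42.0 as an alternative, and tested on simulated data. The 4 pools of a library were captured together, so the library pairs them: library differences of the groups correlated at r = 0.433 to 0.613 in blood, 0.339 to 0.478 in lymphatic and 0.0319 to 0.705 in high endothelial sums. The members and lists were chosen with earlier results of these data known. Of the members, the 11 core genes were described whatever their values, the others where called, or the 3 largest where none was; of each list, up to 3 called genes per direction, of which some are not reported here. Gene coordinates are from GENCODE M21; all 37 members matched, and 27 matched a RefSeq promoter. Digestion is described in the labels for peripheral nodes only.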

Additional observations from a re-analysis of the deposited data

Results flagged for a closer look

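The tissue difference (mesenteric minus peripheral) differed between lymphatic and other blood endothelial cells for 5 of 36 members, against 0.909% of 11224 genes, by edgeR's test of the difference itself, which was added after the tissue results were seen. Without library 1 the differences of Col13a1 and Fbln2 no longer passed (adjusted p = 0.431 and 0.106). For Fbln5 the lymphatic effect minus the blood effect was -2.70 on the log2 scale, for Col13a1 3.14, for Mgp 4.39, for Bgn -1.62 and for Fbln2 -1.52. The effects themselves were 0.86 in blood and -1.80 in lymphatic cells for Fbln5, -1.64 and 1.53 for Col13a1, -0.12 and 4.29 for Mgp, 1.12 and -0.48 for Bgn, and 0.61 and -0.87 for Fbln2. The shares of 7 of 9 blood subsets, the Penk-led one where Col13a1 is highest among them, and of ceiling cells also did not overlap between tissues, and their part in these effects was not tested.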

How the results depend on the processing

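Precision was limited by 2 pools per group, by small high endothelial sums and by counting error, which the intervals and floors alone cover. Of all values tried, 2 changed sign: Mgp in lymphatic against blood cells was 0.79 without library 1 (-2.53 without library 2), and the tissue difference of Reln in lymphatic cells was 0.013 with equal weight per subset. In what follows, the percent after a count of members called is that of all genes called in the same fit. With the library as a replicate block, tissue calls rose to 12 in blood (4.9% of genes) and 21 in lymphatic cells (13.3%), genotype calls to 1 in each (0.189% and 0.835%), and the interaction in blood to 1 (0.00994%). A library-by-genotype term beside the block gave 13 and 24 tissue calls (7.26% and 13.4%), 2 and 4 genotype calls (0.616% and 1.87%) and 1 interaction call in each (0.497% and 0.328%). Without the low-count filter there were 7 and 18 tissue calls in blood and lymphatic cells (2% and 4.78%), and in blood 2 genotype calls (0.166%) and 1 interaction call (0.0828%). Thinning left 10 calls for high endothelial cells (28.9%) and 1 for their tissue test (1.1%). Leaving out library 1 or library 2 gave 5 or 11 tissue calls in blood (0.794% or 6.11%), 6 or 21 in lymphatic cells (2.11% or 10.3%) and 3 or 6 for the difference between them (0.606% or 3.17%). For genotype it gave 0 or 5 calls in blood (0.0212% or 0.961%), 3 or 2 in lymphatic cells (0.332% or 0.727%), 1 or 0 in high endothelial cells (1% or 0.244%) and 1 or 2 for the difference between classes (0.0189% or 0.106%). The cause was not tested.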

Other observations

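Within floor lymphatic cells Dcn ran against the class as a whole, at 0 to 12.7 CPM in 4 peripheral and 42.3 to 63.8 CPM in 3 mesenteric pools, and Col13a1 was also higher there in mesenteric pools without overlap. In high endothelial sums Tagln ranged from 0 to 439 CPM over 8 pools, while Acta2, Cspg4 and Pdgfrb of the same mural list were at 0 in all 8.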
